A study of Homo sapiens with 6 samples.

Results

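The 10 genes described here belong to the heparan sulfate system and were followed through 2 experiments on MRC5 cells, an immortalized line of human embryonic lung fibroblasts. They encode the extracellular sulfatases SULF1 and SULF2, the chain polymerase EXT1, the syndecans SDC1, SDC2 and SDC4, and the glypicans GPC1, GPC3, GPC4 and GPC6. The genes were chosen by name, and all 10 were found in both tables among 25368 gene symbols. SULF1 was put on the list because it was already known to rise among the most with the JNK inhibitor, so its values in that comparison are a description of why it was chosen.

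The RNA-seq data consisted of 6 libraries, with 1 library for each condition. In the first experiment, MRC5 cells were infected for 2 h with an adenovirus carrying an empty vector (control), FLAG-tagged JUN WT or FLAG-tagged JUN AA, and were then cultured for 3 days. JUN is a subunit of the transcription factor AP-1, and JUN AA is a mutant in which both serines phosphorylated by the kinase JNK are replaced by alanine. All 3 cultures carried adenovirus, so none of them is an uninfected reference. In the second experiment, untreated MRC5 cells were set beside induced CAFs (iCAFs), which are MRC5 cells kept for 7 days in medium conditioned by the breast cancer line MDA-MB-231. iCAFs+JNKi were such cells treated with 1 µM of a JNK inhibitor (JNKi, the covalent inhibitor JNK-IN-8) for 48 h, and the treatment protocol names DMSO as the vehicle for iCAFs. Both experiments rest on a single cell line, and nothing in them stands for variation between donors.

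Heparan sulfate is a long, sulfated sugar chain that is built in the Golgi on a few core proteins. Syndecans carry it across the plasma membrane, and glypicans are attached to the outer leaflet by a lipid anchor. The pattern of sulfate groups decides which growth factors the chains hold, among them FGFs, WNTs, VEGF and chemokines. SULF1 and SULF2 are secreted enzymes that remove 6-O-sulfate groups from finished chains outside the cell, whereas EXT1 forms with EXT2 the complex that extends the chain. In fibroblasts these genes thus set how signals are stored and presented at the cell surface and in the matrix.

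Levels are given as FPKM, the fragments per kilobase of exon and scaled to the mapped fragments of the library, as the authors deposited them, a scale on which genes of unequal length can be set side by side within a library. Differences are differences in log2(FPKM + 1), which understate the change of genes with low values. A gene was counted as higher or lower when the difference reached 1, that is 2-fold. Throughout, 2-fold means this difference, and a ratio of plain FPKM can exceed 2 without reaching it. Counts over all genes used those averaging 1 FPKM or more over the 3 libraries of a table, 10311 in the adenovirus table and 11780 in the other. As each condition had 1 library, no difference has a replicate check, no test was made and no p-value is given. The 2 tables were normalised separately, and values were compared only within a table. FPKM summed to between 494603 and 613184 in the adenovirus libraries and between 359944 and 399532 in the others, and the number of reads is not given in the sources used here. JUN itself was at 25.5 FPKM with the empty vector, 4543 with JUN WT and 291 with JUN AA. Of 11 fibroblast markers, all were above 1 FPKM in each library, while the 8 epithelial, 5 endothelial and 6 immune markers summed to at most 2.82, 0.63 and 0.98 FPKM, with CDH1, KRT5, CDH5 and CD3E listed at 0 throughout.

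In untreated MRC5 cells, GPC1 was the most abundant of the 10 transcripts at 155 FPKM, higher than 96.6% of the genes passing the filter. EXT1 followed at 60.0 FPKM and SDC4 at 53.2 FPKM, then SDC1 at 16.7 FPKM and SDC2 at 15.02 FPKM. GPC6 was at 5.43 FPKM and GPC4 at 1.77 FPKM. The sulfatases stood at the bottom, with SULF1 at 0.57 FPKM and SULF2 at 0.37 FPKM, and GPC3 was listed at 0. GPC1 also headed the order in the adenovirus control, at 403 FPKM, where SULF2 at 1.08 FPKM was above SULF1 at 0.56 FPKM. With single libraries, the spread needed to separate neighbours in this order, such as SDC1 and SDC2 in MRC5, was not measured. GPC3 was listed at 0 in 4 of the 6 libraries and at 0.11 FPKM or less in the other two, and no fold is given for it. On GRCh37, GPC1 lies on chromosome 2 from 241375080 to 241407493, SDC1 on chromosome 2 from 20400558 to 20425194 and SDC4 on chromosome 20 from 43953928 to 43977064. GPC6 lies on chromosome 13 from 93879060 to 95060274, and GPC4 and GPC3 lie on chromosome X from 132434131 to 132549517 and from 132669773 to 133121127. SULF1, SDC2 and EXT1 are on chromosome 8. All are protein-coding genes, and FPKM covers their exons.

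**Figure D1:**
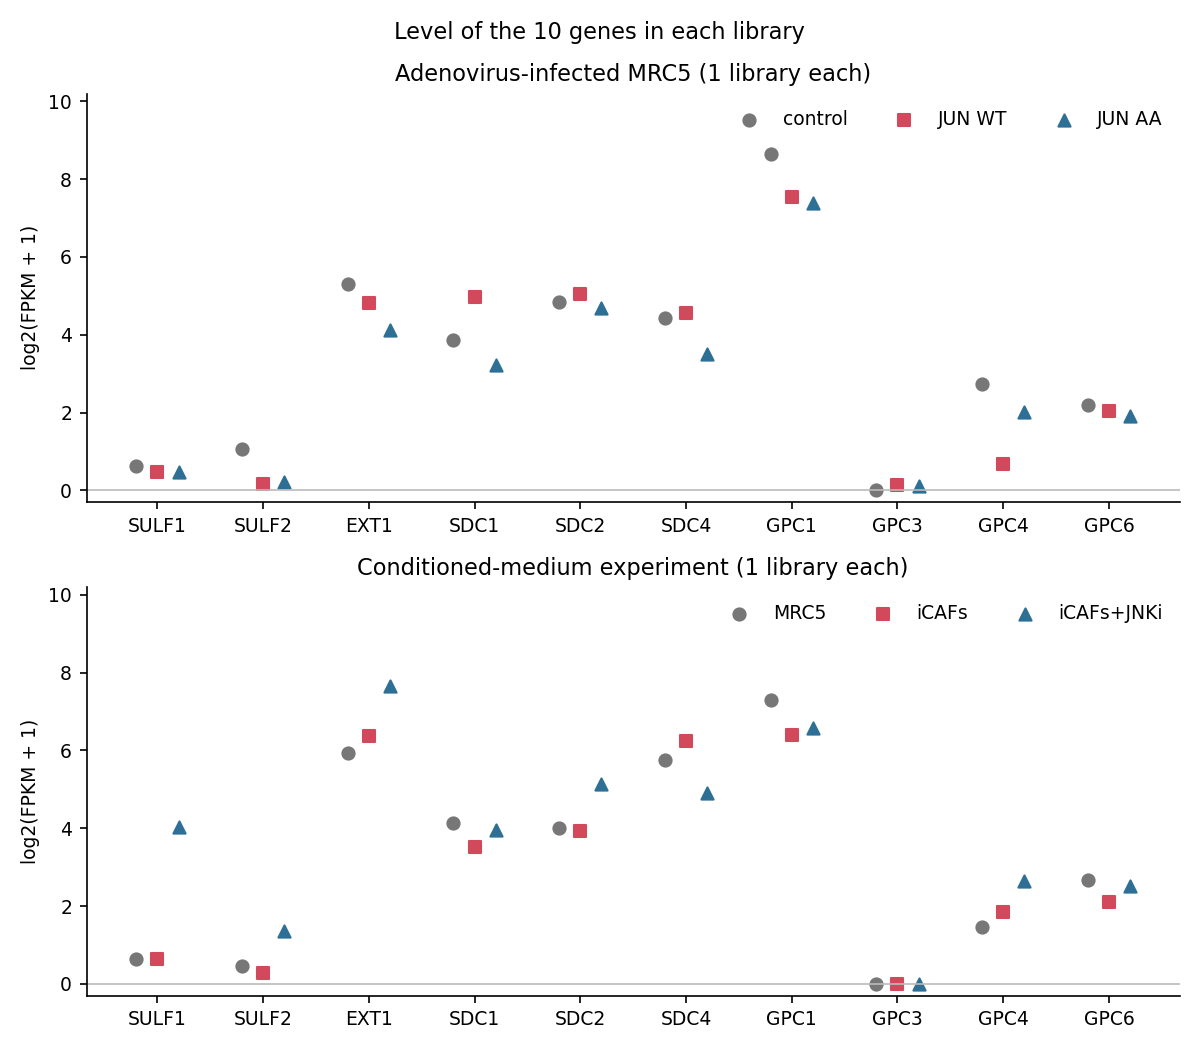
Level of each of the 10 genes as log2(FPKM + 1) on the vertical axis, with 1 point per library, for the adenovirus experiment above and the conditioned-medium experiment below. SULF1 lies below 1 in 5 libraries and near 4 in iCAFs+JNKi, where it was at 15.4 FPKM, and GPC1 is the top point in every library except iCAFs+JNKi.

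JNKi treatment of iCAFs was the setting for which SULF1 was chosen. SULF1 was at 0.57 FPKM in MRC5 cells, 0.57 in iCAFs and 15.4 with JNKi. The values of MRC5 and iCAFs are almost the same, and the JNKi library alone is high. In such bulk RNA, a change in the share of cells that express a gene and a change in RNA per cell cannot be told apart. The ratio of the JNKi library to iCAFs was 27.0 in FPKM and the log2 difference was 3.39, the second largest rise among 11780 genes. In the order of rises, SULF1 lay between CHI3L2, a chitinase-like protein, with a log2 difference of 3.67, and RGS5, a regulator of G-protein signalling, with 3.36. Its level rose from above 0.42% to above 66.2% of the genes passing the filter. SULF1 passed that filter only through the JNKi library. The size of the rise depended on how the near-zero starting values were treated, at 4.53 with a pseudocount of 0.1 FPKM and 4.16 with FPKM rescaled to a common sum of 1000000.

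SULF2, the partner enzyme with the same activity, was at 0.37 FPKM in MRC5 cells, 0.21 in iCAFs and 1.56 with JNKi. It was thus highest in the same library as SULF1, at 7.37 times its level in iCAFs and with a log2 difference of 1.08, which was 2.41 with a pseudocount of 0.1 FPKM and 1.79 with rescaling. At an unknown number of reads, values this low cannot show whether SULF2 differed. Its mean of under 1 FPKM kept it out of the counts. SULF2 lies on chromosome 20 of GRCh37 from 46284941 to 46415360, where 247 of its exon bases are shared with NCOA3 on the opposite strand. NCOA3 was at 7.47, 8.67 and 8.97 FPKM in MRC5, iCAFs and iCAFs+JNKi, and the part of its reads in the SULF2 values was not tested. With both genes together, sulfatase mRNA amounted to 0.94 FPKM in MRC5 cells, 0.78 in iCAFs and 17.0 with JNKi, and SULF1 made up 90.8% of the last sum.

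EXT1, which adds the alternating sugars of the chain, was at 60.0 FPKM in MRC5 cells, 81.7 in iCAFs and 201.5 with JNKi. The JNKi library was the highest of the 3 and made EXT1 the most abundant of the 10 genes, above GPC1 at 95.3 FPKM. The log2 difference against iCAFs was 1.29, and only 1.33% of genes rose more. EXT2, the other subunit of the polymerase, was at 43.5, 67.9 and 46.7 FPKM in these libraries, with a log2 difference of -0.53 against iCAFs. The ratio of EXT1 to EXT2 was therefore 1.38 in MRC5 cells, 1.20 in iCAFs and 4.31 with JNKi.

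SDC2 and SDC4 went in opposite directions with JNKi. SDC2, a syndecan typical of mesenchymal cells, was at 15.02 FPKM in MRC5 cells, 14.1 in iCAFs and 34.5 with JNKi. SDC4, which sits in focal adhesions and takes part in adhesion to fibronectin, was at 53.2 FPKM in MRC5 cells, 74.5 in iCAFs and 29.2 with JNKi. The log2 differences against iCAFs were 1.23 for SDC2 and -1.32 for SDC4, and 0.908% of genes fell more than SDC4. The ratio of SDC4 to SDC2 was 3.54 in MRC5 cells, 5.27 in iCAFs and 0.85 with JNKi. SDC1, the main syndecan of epithelia, was at 16.7, 10.5 and 14.5 FPKM, and its differences from iCAFs and from MRC5 were under 2-fold. Summed over the 4 syndecans, mRNA was at 158 FPKM in MRC5 cells, 156 in iCAFs and 140 with JNKi. SDC4 made up 47.9% of this sum in iCAFs and 20.8% in iCAFs+JNKi, and SDC2 made up 9.08% and 24.6%.

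**Figure D2:**
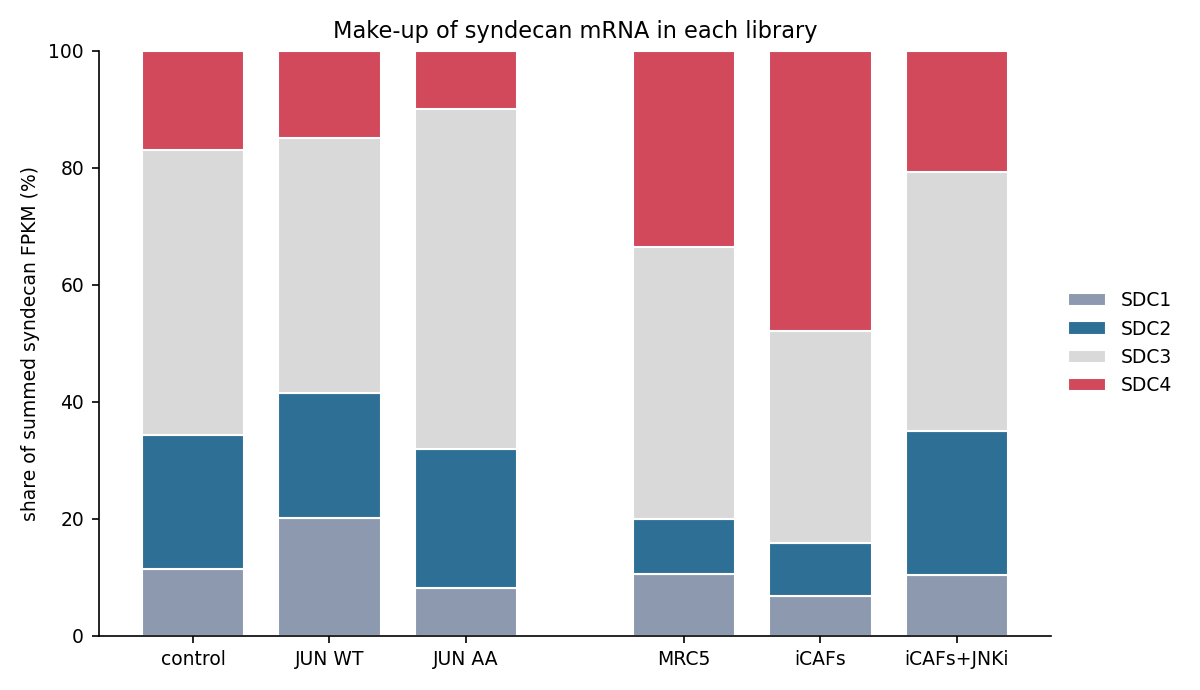
Stacked bars of the share of summed syndecan FPKM, in percent on the vertical axis, taken by SDC1, SDC2, SDC3 and SDC4 in each of the 6 libraries. SDC4 is the largest part in iCAFs at 47.9% and falls to 20.8% in iCAFs+JNKi, and the share of SDC1 is higher in JUN WT, at 20.1%, than in the other 5 libraries.

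No glypican reached 2-fold between iCAFs and iCAFs+JNKi. GPC1 was at 155 FPKM in MRC5 cells, 83.4 in iCAFs and 95.3 with JNKi. It was thus highest in untreated cells, and the log2 difference of iCAFs against MRC5 was -0.89, just short of 2-fold. GPC4, a glypican that modulates WNT and BMP signals, was at 1.77 FPKM in MRC5 cells, 2.64 in iCAFs and 5.25 with JNKi. Each library stood above the one before, and the log2 difference was 0.78 against iCAFs and 1.18 against MRC5. GPC6, its closest relative in the family, was at 5.43, 3.34 and 4.72 FPKM, and 511 of its exon bases are shared with a gene on the opposite strand. GPC1 made up 95.2% of the summed glypican FPKM in MRC5 cells, 92.4% in iCAFs and 90.0% with JNKi, so the other glypicans were a small part in all 3.

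Of the 8 members that passed the filter in this table, 3 were at least 2-fold higher in iCAFs+JNKi than in iCAFs, namely SULF1, EXT1 and SDC2. Over all genes 2.25% were higher, 1.97% lower and 4.22% either, and this comparison chose SULF1, so nothing is read from the count of 3 or from the median. SDC4 was the only one of the 8 at least 2-fold lower. GPC4 also reached 2-fold, at 1.02, with FPKM rescaled to a common sum. The median log2 difference of the 8 was 0.60, and that of all genes was -0.099. Between iCAFs and MRC5, none of the 8 reached 2-fold in either direction, where 1.94% of all genes were higher, 1.71% lower and 3.65% either. The differences ran from -0.89 for GPC1 to 0.48 for SDC4, with a median of -0.039 beside -0.061 over all genes. In iCAFs+JNKi against MRC5, 4 were at least 2-fold higher (3.28% of all genes), namely SULF1, EXT1, GPC4 and SDC2, and 0 were lower (3.53%, and 6.81% in either direction). SULF1 was chosen for its level in the same JNKi library, so nothing is read from this count either. These comparisons share the iCAFs and MRC5 libraries, and their values are given side by side for that reason. Fibroblast markers moved with the same library: 6 of 11 were at least 2-fold higher with JNKi than in iCAFs, with a median of 1.07. Their summed level was 7684 FPKM in MRC5 cells, 7980 in iCAFs and 12065 with JNKi. FN1 alone was at 2044, 3940 and 5813 FPKM, and of the 11 markers 9 were lower in iCAFs than in MRC5 and 2 higher. The part of these markers in the rises of SULF1, EXT1 and SDC2 was not tested.

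**Figure D3:**
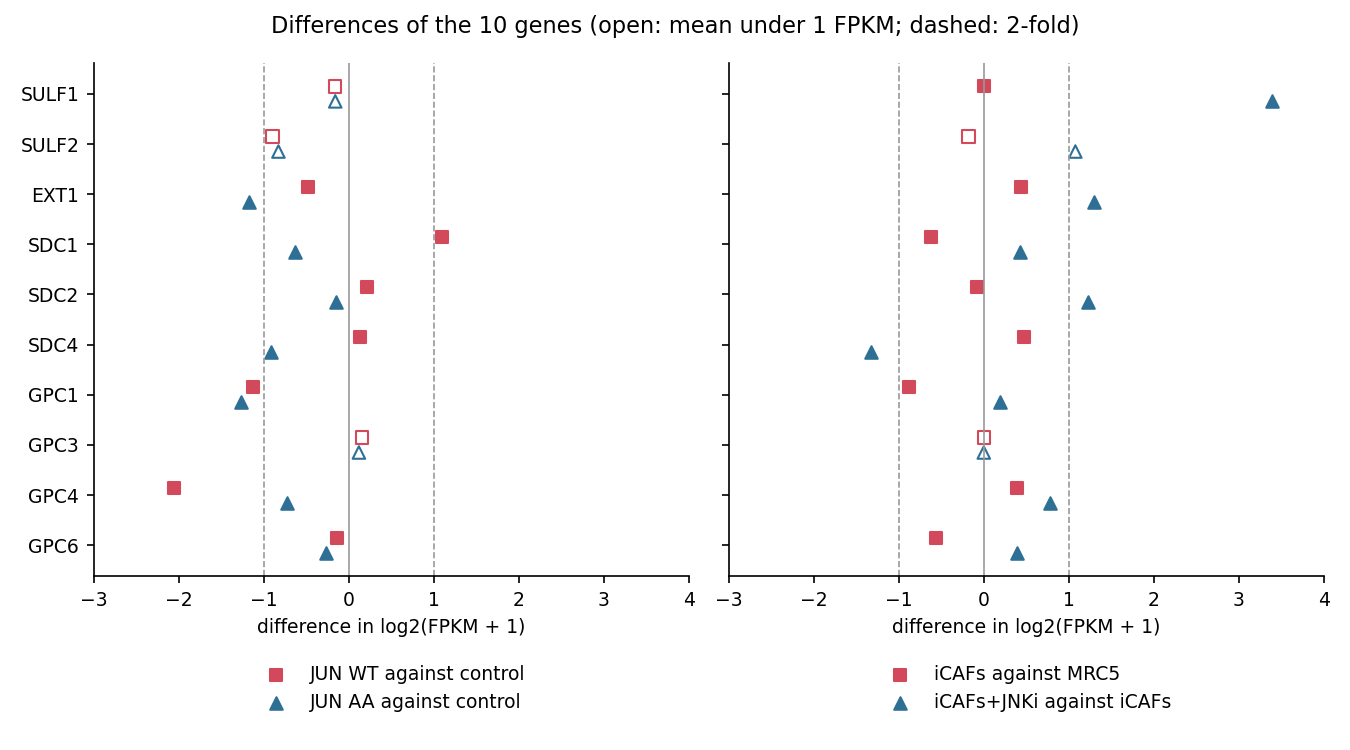
Differences in log2(FPKM + 1) of the 10 genes on the horizontal axis, for JUN WT and JUN AA against control on the left and for iCAFs against MRC5 and iCAFs+JNKi against iCAFs on the right, with dashed lines at 2-fold and open symbols for a mean under 1 FPKM. SULF1 lies at 3.39 with JNKi, SDC4 at -1.32, and GPC4 at -2.05 in JUN WT.

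In the adenovirus experiment the sulfatases stayed low. SULF1 was at 0.56 FPKM with the empty vector, 0.39 with JUN WT and 0.40 with JUN AA. SULF2 was at 1.08 FPKM with the empty vector, 0.12 with JUN WT and 0.17 with JUN AA. Both were highest in the control and close to each other in the JUN libraries. At an unknown number of reads, values of this size cannot show whether either gene differed between conditions, and neither passed the filter.

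SDC1 was the one member that rose at least 2-fold in JUN WT against control. It was at 13.7 FPKM with the empty vector, 30.4 with JUN WT and 8.42 with JUN AA, so the JUN WT and JUN AA libraries lay on either side of the control. The log2 difference from the control was 1.10 for JUN WT and -0.64 for JUN AA, and JUN WT was 1.73 above JUN AA. JUN mRNA was not matched between these libraries, as given above. Of the summed syndecan FPKM, SDC1 made up 11.3% with the empty vector, 20.1% with JUN WT and 8.12% with JUN AA. Its rise against control is close to the threshold and was under 2-fold, at 0.95, with differences centred on the median gene, since the median gene was at 0.15 in JUN WT.

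SDC4 was at 20.5 FPKM with the empty vector, 22.6 with JUN WT and 10.4 with JUN AA. The low library was JUN AA, with a log2 difference of -0.91 from the control, and JUN WT was 1.05 above JUN AA. The last value was under 2-fold, at 0.86, with centring on the median gene and at 0.55 with length and GC trends removed. SDC2 was at 27.6, 32.2 and 24.7 FPKM respectively, with no difference of 2-fold. EXT1 was at 38.2 FPKM with the empty vector, 27.1 with JUN WT and 16.4 with JUN AA. It was lowest in JUN AA, at a log2 difference of -1.18, and its ratio to EXT2 was 1.49, 0.63 and 0.86.

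GPC4 fell most of the 10 genes in JUN WT. It was at 5.69 FPKM with the empty vector, 0.61 with JUN WT and 3.03 with JUN AA, with JUN WT the low library. The log2 difference was -2.05 in JUN WT, where 0.301% of genes fell more, and -0.73 in JUN AA. With a pseudocount of 0.1 FPKM the JUN WT value was -3.02. GPC1 was at 403 FPKM with the empty vector, 184 with JUN WT and 167 with JUN AA. Both JUN libraries were lower than the control, by log2 differences of -1.12 and -1.26, and they differed from each other by 0.14. GPC1 has the transcript richest in GC of the 10, at 66.7%. Over 9393 genes, which share the libraries and are no replicates of each other, the difference between JUN WT and control had a Spearman's rho of -0.39 with transcript GC content, and with length and GC trends removed GPC1 was at -0.75 in JUN WT. In JUN AA, where rho was -0.32, it stayed past 2-fold at -1.09 with these trends removed. How far GC content enters the GPC1 value was not tested further. GPC6 was at 3.56, 3.13 and 2.79 FPKM, and did not reach 2-fold.

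Of the 7 members that passed the filter in this table, 1 was at least 2-fold higher in JUN WT than in the control (6.92% of all genes) and 2 were lower (3.39%, and 10.3% in either direction), namely GPC4 and GPC1. In JUN AA against control, 0 were higher (5.29%) and 2 were lower (3.77%, and 9.06% in either direction), namely GPC1 and EXT1, and all 7 lay below the control, where 51.4% of all genes did. The median difference of the members was -0.14 for JUN WT and -0.73 for JUN AA, and that of all genes was 0.15 and -0.015. In JUN WT against JUN AA, SDC1 and SDC4 were at least 2-fold higher (6.65% of all genes) and GPC4 was lower (5.61%, and 12.3% in either direction), with a median of 0.37 beside 0.18 over all genes. FPKM rescaled to a common sum moved the JUN AA library as a whole, with the median of all genes at -0.29, and SDC4 and GPC4 joined GPC1 and EXT1 as at least 2-fold lower in it.

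Set side by side, the members did not keep 1 order of response. SDC4 was at 74.5 FPKM in iCAFs and at 29.2 FPKM with JNKi, beside 22.6 FPKM with JUN WT and 10.4 with JUN AA, so it was lower under JNKi than in iCAFs and lower in JUN AA than in JUN WT. GPC4 was at 2.64 FPKM in iCAFs and 5.25 FPKM with JNKi, beside 0.61 FPKM with JUN WT and 3.03 with JUN AA, the opposite order within each pair. Against the control, both genes were lower in JUN AA, by log2 differences of -0.91 for SDC4 and -0.73 for GPC4. EXT1 was highest with JNKi but lower in JUN AA than in JUN WT. SULF1 was high with JNKi and at 0.40 FPKM in JUN AA. The pairs come from tables that were normalised separately, and a difference between them was not tested. JUN mRNA was not matched between JUN WT and JUN AA. The SDC4 difference between these 2 libraries went from 1.05 to 0.86 with centring on the median gene and to 0.55 with trends removed.

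The upstream sequences of SDC4 and GPC4 are shown because these 2 genes had opposite orders in iCAFs with and without JNKi and in JUN WT and JUN AA, as given above. RefSeq promoter windows on GRCh38.p14, 250 bases before to 50 after a start, were found for 6 of the 10 genes, with 10 windows in all: SULF2, GPC1, GPC4, GPC6, SDC1 and SDC4. SULF1, SDC2, EXT1 and GPC3 had none. The 250 bases before the start are printed 5′ to 3′ on the strand of the gene, with each GC box, GGGCGG or its reverse complement CCGCCC, in capitals. SDC4 is from chr20:45348425-45348674 and GPC4 from chrX:133415490-133415739, both on the minus strand.
SDC4: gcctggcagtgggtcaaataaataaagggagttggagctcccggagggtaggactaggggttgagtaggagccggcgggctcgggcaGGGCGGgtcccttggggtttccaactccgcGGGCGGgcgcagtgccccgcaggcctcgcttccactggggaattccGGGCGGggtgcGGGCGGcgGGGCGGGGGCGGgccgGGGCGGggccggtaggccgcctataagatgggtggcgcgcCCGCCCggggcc
GPC4: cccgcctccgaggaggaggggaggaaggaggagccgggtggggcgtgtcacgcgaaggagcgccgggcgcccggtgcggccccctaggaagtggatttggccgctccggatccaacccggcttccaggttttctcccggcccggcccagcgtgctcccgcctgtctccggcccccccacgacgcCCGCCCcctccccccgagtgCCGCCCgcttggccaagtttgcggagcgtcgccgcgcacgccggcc

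The SDC4 stretch holds 8 GC boxes and the GPC4 stretch 2. Over the whole windows, 7 of the 10 member windows hold at least 1 GC box, and 45% of all 35116 windows do. SULF2 and SDC1 had several windows each, so the 10 are not separate units. By gene, 5 of the 6 had a GC box. The AP-1 heptamer, TGACTCA or TGAGTCA on either strand, was in 0 of the 10 windows and in 4.95% of all windows. The related octamer TGACGTCA was also in 0 of the 10 and in 1.85% of all windows. These counts say only that the letters are not in these windows. GPC1 had the window richest in GC, at 83.3%, and GPC6 the poorest, at 40%.

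The rest of the pathway was described with 7 lists that hold 72 further genes, of which 53 passed the filter in the JNKi table. Some of them, such as other sulfatases and genes of the linker and of sulfate supply, are not particular to heparan sulfate. With JNKi, 2 of the 53 reached 2-fold above iCAFs, a share of 3.77% beside 2.25% of all genes, and 0 reached it below, beside 1.97%. The median difference was 0.062, and that of all genes was -0.099. Both that rose are sulfatases. ARSI, a secreted arylsulfatase, was at 1.83 FPKM in MRC5 cells, 2.91 in iCAFs and 12.3 with JNKi. ARSK, a lysosomal sulfatase that acts on glucuronate in the breakdown of the chains, was at 9.42, 6.16 and 15.7 FPKM. Their log2 differences were 1.77 and 1.22, while the other 8 sulfatases and activators that passed lay between -0.17 for STS and 0.23 for ARSB. SUMF1 and SUMF2, of which the first activates all sulfatases, were at 0.12 and 0.09.

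Apart from the member EXT1, described above, none of the genes for chain synthesis and sulfation reached 2-fold with JNKi. The 11 genes for the linker and the chain had a median difference of -0.11, from -0.53 for EXT2 to 0.35 for EXTL2, a transferase of the EXT family. Of 16 genes for sulfation and epimerisation, 7 passed, with a median of -0.076. They ran from -0.83 for NDST2, an N-deacetylase/N-sulfotransferase, to 0.57 for HS6ST1, which adds the 6-O-sulfate that the SULF enzymes remove. HS6ST1 was at 16.6 FPKM in MRC5 cells, 19.7 in iCAFs and 29.8 with JNKi. The 6 genes of sulfate supply lay between -0.29 for PAPSS1, which makes the sulfate donor, and 0.24 for SLC26A2, a sulfate transporter. The 8 breakdown genes that passed lay between -0.45 for HGSNAT and 0.58 for NAGLU, both lysosomal enzymes of heparan sulfate degradation, and heparanase, HPSE, was at 0.10 FPKM in all 3 libraries. Among other core proteins, TGFBR3 (betaglycan) had the lowest difference, at -0.81, and COL18A1 the highest, at 0.47. TGFBR3 was at 6.52 FPKM in MRC5 cells, 2.61 in iCAFs and 1.06 with JNKi. Of 8 genes for release and partners of core proteins, 5 passed, from -0.40 for GIPC1 to 0.14 for CASK, and the 13 genes of the chondroitin and dermatan sulfate branch that passed ran from -0.87 for CHST11 to 0.50 for CHST3.

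**Figure D4:**
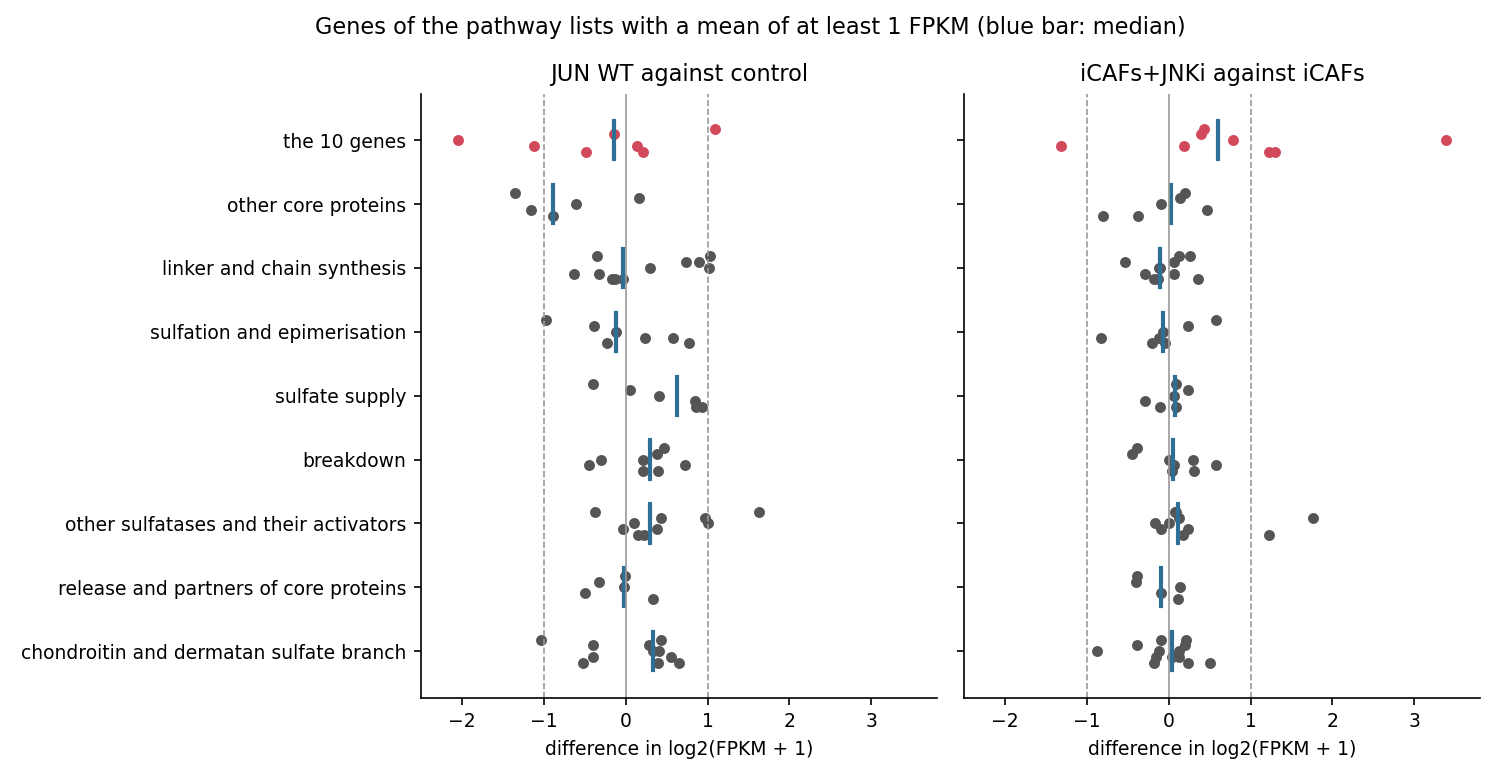
Differences in log2(FPKM + 1) on the horizontal axis for the members and 8 lists of related genes, with 1 point per gene that passed the filter and a blue bar at the median, for JUN WT against control and for iCAFs+JNKi against iCAFs. With JNKi only ARSI at 1.77 and ARSK at 1.22 pass 2-fold among the related genes, whose lowest value is -0.87 for CHST11, while the members spread from -1.32 to 3.39.

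In JUN WT against control, 4 of the 52 genes of these 7 lists that passed rose by 2-fold or more and 2 fell as much. These are shares of 7.69% and 3.85%, beside 6.92% and 3.39% over all genes. The rises were those of ARSJ, an arylsulfatase, from 6.46 to 22.0 FPKM, of STS (steroid sulfatase), from 1.43 to 3.86 FPKM, of XYLT1, which starts the linker on the core protein, from 0.99 to 3.06 FPKM, and of FAM20B, the kinase of the linker xylose, from 2.14 to 5.38 FPKM. The falls were those of SRGN (serglycin), from 2.63 to 0.43 FPKM, and COL18A1, a basement membrane proteoglycan, from 69.3 to 30.5 FPKM. The 6 genes of sulfate supply had the highest median of the 7 lists, at 0.63, led by SLC35B3, a Golgi carrier of the sulfate donor, at 0.93. None of the 6 reached a log2 difference of 1, although SLC35B3 went from 6.09 to 12.5 FPKM. The other core proteins had the lowest, at -0.89 over 5 genes. How far the trend with GC content given above enters these medians was not tested. The sulfation genes ran from -0.97 for HS6ST1 to 0.77 for GLCE, the epimerase. Among the breakdown genes, NAGLU was at -0.45. ADAM17 and ADAM10, proteases that shed syndecans, were at -0.50 and 0.33. The lowest values of the supply, chain and sulfatase lists were -0.40 for SLC35B2, -0.64 for EXTL3 and -0.37 for SUMF2, and SDC3 was at 0.16. In the chondroitin branch, CHST3 was at -1.04 and CHST7 at 0.65. JUN AA had 0 of the 52 above the control by 2-fold (5.29% of all genes) and 3 below it (3.77%), with a median of -0.32 beside -0.015 over all genes. JUN WT had 7 above JUN AA, a share of 13.5% (6.65% of all genes), and 0 below it (5.61%), with a median of 0.44 beside 0.18. All 10 other sulfatases and activators that passed were higher in JUN WT than in JUN AA, by 0.35 to 1.23, where 62.5% of all genes were higher.

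Genes with a pattern like that of SULF1 were taken as those with the smallest Euclidean distance over 4 differences: JUN WT and JUN AA against control, iCAFs against MRC5, and iCAFs+JNKi against iCAFs. SULF1 itself did not pass the filter in the adenovirus table, so its differences there rest on values too low to show a change. Of 10020 genes that passed the filter in both tables, the nearest 5 were DNAJC25-GNG10 at a distance of 0.80, CDH6 at 0.99, PCDH18 at 1.08, NPR3 at 1.17 and LMCD1 at 1.30. The first is a readthrough gene that would share reads with its neighbours. CDH6, a cadherin, was at 4.87 FPKM in MRC5 cells, 4.12 in iCAFs and 37.9 with JNKi, and PCDH18, a protocadherin, was at 28.0, 15.7 and 120 FPKM. NPR3, the clearance receptor for natriuretic peptides, was at 1.03, 0.95 and 9.29 FPKM. With JNKi the differences of these 5 were 2.31 to 2.92, beside 3.39 for SULF1. SULF1 was chosen for this rise, which also enters the distance, so nothing is read from its place above them.

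**Figure D5:**
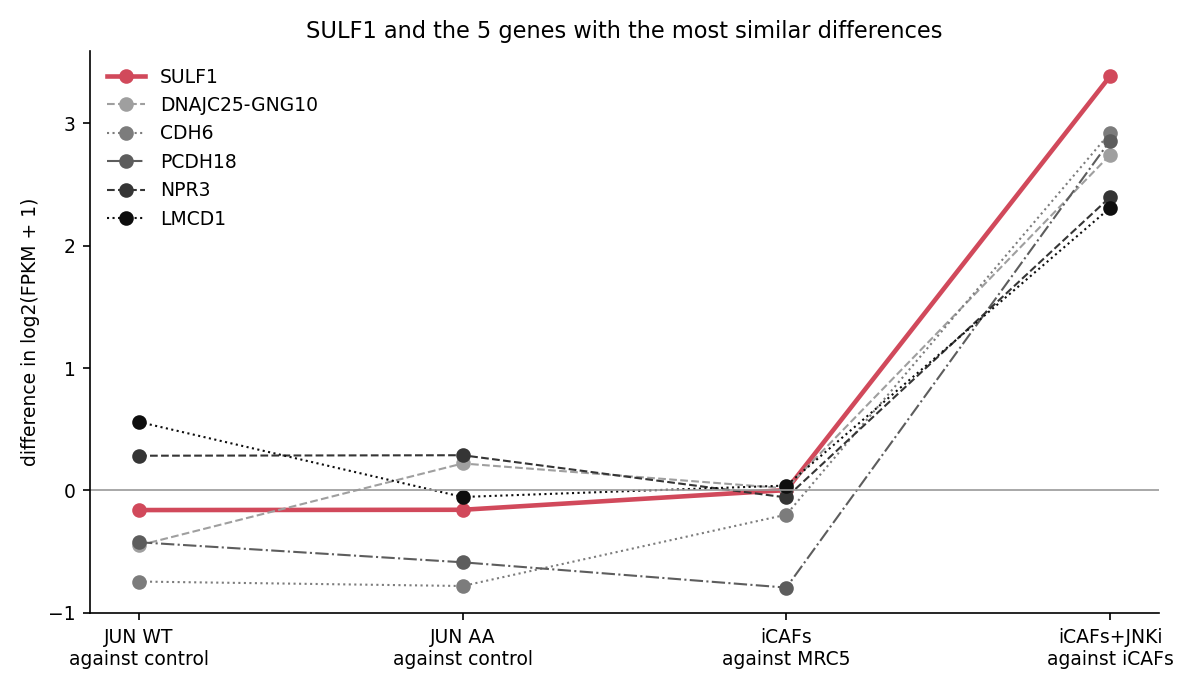
Differences in log2(FPKM + 1) on the vertical axis in the 4 comparisons named on the horizontal axis, for SULF1 (red) and the 5 genes nearest to it. All 6 lie between -0.79 and 0.56 in the first 3 comparisons and between 2.31 and 3.39 with JNKi. SULF1 had a mean under 1 FPKM in the adenovirus libraries.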

How the data were processed

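Gene expression was measured by RNA-seq in 6 libraries of MRC5 cells, 1 per condition. The authors aligned reads to hg19 (HISAT2 2.1.0) and deposited gene-level FPKM from StringTie 2.1.1. The annotation, strand setting and number of reads are not given in the sources used here. Reads of genes that share exon bases therefore cannot be told apart by strand. Low values were searched for steps worth 1 read. No ratio between libraries held over 3.05% of genes, so relative depth was not recovered.

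Each table had 25370 rows. Of rows sharing a symbol, the one with the highest mean was kept. Differences in log2(FPKM + 1) were computed within a table with pandas 2.3.3, numpy 2.4.6 and scipy 1.17.1 under Python 3.11.15, and drawn with matplotlib 3.10.9. FPKM are not counts and libraries had no replicates, so no model or test was used. The calculation was tested on simulated data. The members and lists were chosen with earlier results of these data known. Named genes are the members, the largest rise and fall of each list in JUN WT against control and in iCAFs+JNKi against iCAFs, list genes past 2-fold with JNKi, and the neighbours of SULF1. Other names were added after their values were seen. 1 named gene of the breakdown list is not reported here. Positions and exon overlaps come from GENCODE on GRCh37, the assembly also called hg19, and promoters from RefSeq on GRCh38.p14. Alternatives were rescaling to a sum of 1000000, a 0.1 FPKM pseudocount, differences centred on the median gene, no filter, a filter of 5 FPKM and, chosen after seeing the data, removal of length and GC trends in 20 bins.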

Additional observations from a re-analysis of the deposited data

How the results depend on the processing

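No paired analysis was possible because each condition has 1 library. For the same reason no library could be left out, and depth and precision are unknown. For the members' counts and medians, shifts over 0.25 on the log2 scale or over 1.5 times for a count are given here. Of the differences of single members over all comparisons, 21 shifted by over 0.25 with rescaling, 17 with trends removed and 14 with a pseudocount of 0.1. Under the alternatives listed in the methods, of which removing trends with length and GC was chosen after seeing the data, no member past 2-fold changed direction, and the counts and medians of the members in the 3 comparisons of the JNKi table shifted less. In JUN WT against control, the members at least 2-fold higher numbered 0 in place of 1 with differences centred on the median gene. Those lower numbered 1 in place of 2 with the 5 FPKM filter and with trends removed, and the median of -0.14 became 0.14 and -0.54. In JUN AA against control, rescaled FPKM gave 4 lower members in place of 2 and a median of -1.07 in place of -0.73. In JUN WT against JUN AA, 1 member in place of 2 was higher with centring and with trends removed, 0 in place of 1 was lower at 5 FPKM, and the median of 0.37 became 0.67 with rescaling and 0.70 at 5 FPKM. The filter of 5 FPKM tests fewer members, and centring subtracts the shift of the median gene. The cause of the other moves was not tested. The counts over all genes moved more. Higher and lower genes numbered 714 and 350 in JUN WT against control, but 1229 and 527 with a pseudocount of 0.1, 436 and 522 centred, 458 and 258 at 5 FPKM and 345 and 328 with trends removed. They numbered 545 and 389 in JUN AA against control, but 338 and 957 rescaled, 289 and 253 with trends removed and 802 and 629 with a pseudocount of 0.1. In JUN WT against JUN AA they were 686 and 578, but 1770 and 364 rescaled, 411 and 822 centred, 362 and 443 with trends removed, 438 and 459 at 5 FPKM and 1151 and 735 with a pseudocount of 0.1, with the median of all genes at 0.47 rescaled. With JNKi against iCAFs they were 265 and 232, but 411 and 244 rescaled, 288 and 145 with trends removed, 323 and 182 centred, 169 and 147 at 5 FPKM and 383 and 386 with a pseudocount of 0.1, and against MRC5 they were 386 and 416, but 581 and 398 rescaled, 517 and 267 centred, 458 and 215 with trends removed, 266 and 263 at 5 FPKM and 508 and 706 with a pseudocount of 0.1. Between iCAFs and MRC5 they were 228 and 202, but 318 and 356 with a pseudocount of 0.1 and 167 and 128 at 5 FPKM.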

Other observations

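Some genes of the sister chains, chondroitin and dermatan sulfate, reached 2-fold between MRC5 and iCAFs. None of the 8 members that passed did, but only 3.65% of all genes reached it in either direction, so nothing is read from that. Of 13 genes of that branch that passed the filter, 4 were at least 2-fold higher in iCAFs and 1 was lower. In all, 12 lay above MRC5, where 40.6% of all genes did. The median log2 difference was 0.42, beside -0.061 over all genes, of which 1.94% were higher and 1.71% lower. Of the 53 genes of the 7 other lists that passed, 0 were at least 2-fold higher in iCAFs and 1 was lower. Those lists also hold the common linker, sulfate supply and sulfatases not particular to heparan sulfate, so they are no clean contrast to this branch. That gene was TGFBR3, at 6.52 FPKM in MRC5 and 2.61 in iCAFs. CSGALNACT1 and CSGALNACT2, which start the chondroitin chain on the common linker, were at 3.11 and 8.20 FPKM in MRC5 and at 13.9 and 18.1 FPKM in iCAFs. The sulfotransferase CHST11 was at 1.48 and 5.10 FPKM, and UST, a 2-O-sulfotransferase, at 8.32 and 19.0 FPKM. DSEL, which resembles the dermatan sulfate epimerase DSE, was at 35.3 FPKM in MRC5 cells, 10.22 in iCAFs and 9.10 with JNKi. With JNKi, CSGALNACT1 was at 10.4 FPKM, CSGALNACT2 at 16.8 FPKM, UST at 20.8 FPKM and CHST11 at 2.33 FPKM. In log2(FPKM + 1), 0 of the 13 reached a difference of 1 against iCAFs, with CHST11 at -0.87. These genes were named after their values were seen, and each value is from 1 library.

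The 3 members at least 2-fold higher with JNKi, SULF1, SDC2 and EXT1, all lie on chromosome 8. SULF1 was chosen for this rise, so nothing is read from the shared chromosome. The 372 genes of that chromosome that passed the filter, these 3 among them, had a median log2 difference of -0.12, beside -0.100 for 10446 genes on the other chromosomes, and 2.42% of them were at least 2-fold higher, beside 2.26%. The 3 genes also have transcripts poor in GC, at 41.5% to 43.6%. Across 10648 genes, which share the libraries and are not independent, the difference with JNKi had a Spearman's rho of -0.050 with GC content and 0.19 with transcript length, and with both trends removed SULF1 was at 3.41, SDC2 at 1.33 and EXT1 at 1.29.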
